A study of Homo sapiens with 4 samples.

Results

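The promoters of 49 genes of DNA replication and S phase were followed in HEK293T cells, a fast-growing human cell line of embryonic kidney origin with SV40 large T antigen, with and without added MORC2. The genes were chosen by name for their roles in origin licensing, the replication fork and nucleotide supply, as a check on a difference in cell cycle between the groups. The choice did not use their values, but it was made with earlier results of these data known. Each had 1 row in a table of 28775 promoters, and all 49 were among the 23407 promoters with enough counts to be tested. Accessibility was measured by ATAC-seq, in which Tn5 transposase cuts open DNA and tags it for sequencing, and was counted over a window taken as 2 kb around each transcription start site. Both groups were wild type for MORC2, an ATPase that compacts DNA. The control group was given the transfection reagent lipofectamine (n = 2), and whether it also received an empty plasmid is not given in the sources used here. The overexpression group was transfected with a plasmid that carries MORC2 fused to a green fluorescent protein (n = 2). Transfection of this kind does not reach every cell, and the study's methods describe no sort for green cells, so a library can hold cells without the plasmid.

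DNA replication begins in G1, when the origin recognition complex (ORC), CDC6 and CDT1 load the MCM2 to MCM7 helicase onto origins. At the start of S phase the kinases fire the loaded helicase together with CDC45 and the GINS complex, and the polymerases copy DNA behind it on a sliding clamp of PCNA. Many of these genes are transcribed from E2F promoters at the boundary of G1 and S, and HEK293T cells divide fast with the E2F brake RB held off by large T antigen.

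Promoter sequences are shown for 5 of these genes. ORC1 is the gene past the threshold, MCM2, PCNA and CCNE1 had unadjusted p-values under 0.05, and POLE is shown as a promoter with the opposite direction. The sequences are from RefSeq on GRCh38.p14, 250 bases before and 50 after an annotated start, written 5′ to 3′ on the strand of the gene, with capitals for matches to the E2F letters or to CCAAT on either strand. The windows are chr1:52404374-52404673 on the minus strand for ORC1, chr3:127598161-127598460 on the plus strand for MCM2, chr20:5126573-5126872 on the minus strand for PCNA, chr19:29811741-29812040 on the plus strand for CCNE1 and chr12:132687293-132687592 on the minus strand for POLE.
ORC1: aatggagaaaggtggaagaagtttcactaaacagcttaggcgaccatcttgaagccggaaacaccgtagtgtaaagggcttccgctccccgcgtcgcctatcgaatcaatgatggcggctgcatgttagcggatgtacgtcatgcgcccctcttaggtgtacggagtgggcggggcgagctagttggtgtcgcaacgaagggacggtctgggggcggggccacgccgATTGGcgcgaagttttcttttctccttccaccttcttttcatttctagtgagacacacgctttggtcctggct
MCM2: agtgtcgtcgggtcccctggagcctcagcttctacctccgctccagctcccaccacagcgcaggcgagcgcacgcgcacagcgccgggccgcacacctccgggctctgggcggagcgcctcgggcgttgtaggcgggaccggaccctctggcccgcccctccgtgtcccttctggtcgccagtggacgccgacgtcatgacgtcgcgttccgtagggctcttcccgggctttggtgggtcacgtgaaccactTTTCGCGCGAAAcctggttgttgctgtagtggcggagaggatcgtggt
PCNA: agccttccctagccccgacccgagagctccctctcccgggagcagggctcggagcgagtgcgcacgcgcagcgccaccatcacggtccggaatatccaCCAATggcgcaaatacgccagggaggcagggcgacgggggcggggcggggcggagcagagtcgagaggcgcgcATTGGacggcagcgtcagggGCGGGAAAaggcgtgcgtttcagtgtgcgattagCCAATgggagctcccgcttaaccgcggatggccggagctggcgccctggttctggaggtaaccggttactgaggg
CCNE1: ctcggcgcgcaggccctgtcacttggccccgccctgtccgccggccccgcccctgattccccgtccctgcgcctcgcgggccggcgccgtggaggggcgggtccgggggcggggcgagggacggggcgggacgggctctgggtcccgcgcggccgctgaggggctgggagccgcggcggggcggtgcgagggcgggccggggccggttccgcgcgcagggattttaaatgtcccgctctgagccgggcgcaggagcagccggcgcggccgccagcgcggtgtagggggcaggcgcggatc
POLE: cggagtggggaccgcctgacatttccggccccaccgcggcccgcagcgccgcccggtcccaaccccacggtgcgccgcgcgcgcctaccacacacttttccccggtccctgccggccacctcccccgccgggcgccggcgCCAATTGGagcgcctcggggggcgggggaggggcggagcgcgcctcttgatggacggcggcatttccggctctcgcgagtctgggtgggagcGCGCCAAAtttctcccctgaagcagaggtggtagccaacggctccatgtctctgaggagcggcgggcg

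The E2F letters searched were TTTCCCGC and TTTGGCGC, along with TTTCGCGC and also TTTGCCGC, on both strands. MCM2 holds a pair of overlapping matches at its start, PCNA has 1 match that begins 59 bases before the start and POLE has 1 that begins 18 bases before it. ORC1 holds a single CCAAT box, read on the other strand, 23 bases before the start, and no exact match to the E2F letters. The CCNE1 window held no exact match of either kind. E2F sites that depart from the searched letters were not looked for, so their absence was not shown. Where a gene had more than 1 annotated start, as 9 of the 42 replication genes in the sequence table did, a match at any start counted. Of these 42 genes, 22 (52.4%) had an E2F match, against 3.99% of 27305 genes. A CCAAT box, the element bound by NF-Y, was found in 25 (59.5%, against 39.7%), and a GC box (GGGCGG) in 32 (76.2%, against 48.3%). The CHR element of G2 and mitosis promoters (TTTGAA or TTCGAA) was found in 2 (4.76%, against 19.5%). At the first listed start alone, an E2F match was found in 20 (47.6%, against 3.33%). The members' windows at that start had a median GC content of 65.3%, against 58.3% for all genes, and a median ratio of observed to expected CpG of 0.951, against 0.580. RPA2, RPA3, GINS4, MCM4, MCM5, CCNE2 and POLD3 were not searched. The plot of motif shares sets these percentages side by side.

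**Figure D1:**
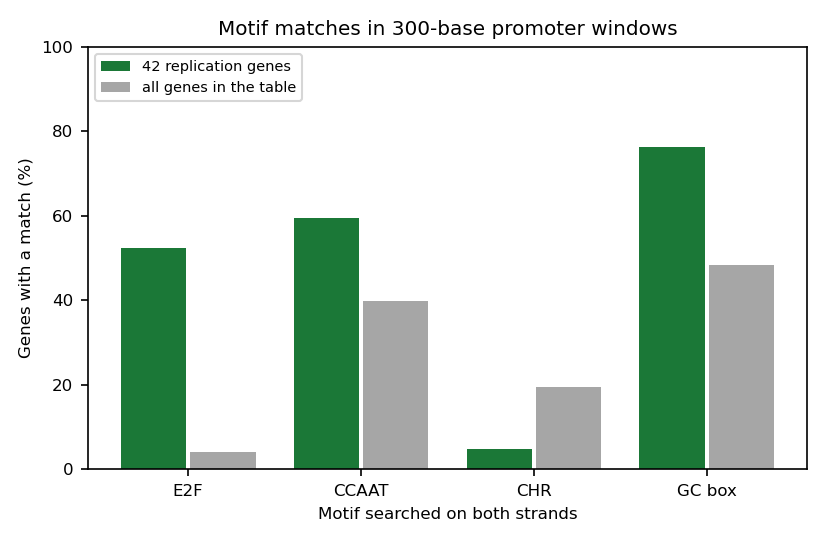
Bars give the percentage of genes (y axis) with a match to each of 4 motifs (x axis) in the 300-base promoter window of any annotated start. They are shown for 42 replication genes (green) and all 27305 genes of the RefSeq promoter table (grey). The E2F bar stands at 52.4% for the replication genes and 3.99% for all genes, and only the CHR bar is lower for the replication genes.

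Promoter counts of the 4 libraries ranged from 3734519 to 10255182, and mitochondrial promoters took 51.9% and 55.6% of them in control and 74.7% and 73.8% in overexpression. The 49 promoters together summed to 15748 and 11877 counts in control, against 5527 and 2985 in overexpression. The median member counted 294 and 217 in control, against 111 and 60 in overexpression, so single values were least precise in overexpression replicate 2. The labels do not say that replicates were separate cultures, and p-values then measure only the spread between these samples, which may be technical. All 8 kidney and neural markers of HEK293 cells had enough counts to be tested, but their control levels were mostly low, with EYA1 at 1.74 TMM-scaled CPM and a list median of 6.74, against 12.1 for all promoters tested. Of 10 markers of blood, liver, muscle and skin, PTPRC, CD3E and ALB had at most 10 counts in any library and were not tested, and the other 7 had a median of 4.47, with APOA1 the highest at 14.2, so promoter levels of the lists did not separate the cell type clearly. In that list ACTA1 (log2 fold change 0.82, edgeR adjusted p 0.0163) and KRT14 (1.16, edgeR adjusted p 0.0218) rose. Both have low levels, at which promoters in general were higher in overexpression, and under loess scaling their adjusted p-values were 0.141 and 0.289. The part of mitochondrial counts or of other cells in the results given here was not tested.

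As a share of nuclear promoter counts, the 49 promoters made up 0.320% (95% Wilson interval from 0.315% to 0.325%) and 0.323% (0.317% to 0.329%) in the control libraries. In the overexpression libraries they made up 0.303% (0.295% to 0.311%) and 0.305% (0.294% to 0.316%). Both overexpression shares lay below both control shares, with control and overexpression intervals that did not overlap except for the upper bound of overexpression replicate 2 against the lower bound of control replicate 1. These intervals cover counting error only. Open promoters in general were lower in overexpression. In the highest of 4 equal bins of mean abundance, 79.2% of all tested promoters had a log2 fold change below 0, with a median of −0.13. The shares of the 49 were not compared with those of other open promoters. In bulk libraries, fewer cells with an open promoter and less open DNA per cell cannot be told apart, and with n = 2 per group the smallest exact permutation p is 0.333.

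Between control and overexpression, 1 of the 49 promoters changed. ORC1, which encodes the largest subunit of the origin recognition complex, fell to 0.705 of its control level. No replication promoter rose. Over all promoters tested, 1.30% fell and 1.16% rose past the same threshold (edgeR quasi-likelihood F-test, Benjamini-Hochberg adjusted p under 0.05), so 1 in 49 is near the share of all promoters. At an unadjusted p under 0.05, 10 of the 49 were lower in overexpression and 0 were higher, against 8.57% lower and 8.66% higher of all promoters. The 10 were ORC1, GMNN, MCM2, MCM7, MCM10, POLA1, POLD1, PCNA, LIG1 and CCNE1, of which 9 did not pass the threshold after adjustment.

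Most of the 49 lay on the lower side by a small amount. A log2 fold change below 0 was found for 36 (73.5%), against 48.6% of all promoters tested, and above 0 for 13. The median was −0.15, a ratio of 0.904, against 0.0099 for all promoters, and the values ran from −0.50 (ORC1) to 0.28 (RFC4). At 24 promoters both overexpression libraries were lower than either control library and at 6 they were higher, while the groups overlapped at 19. For all promoters those shares were 24.9% below and 24.8% above. The 95% interval of 10 promoters lay below 0, that of 0 lay above it, and that of 39 held 0. For 48 of the 49, all but RPA3, the interval excluded a 2-fold change in either direction. The median standard error was 0.138 on the log2 scale.

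**Figure D2:**
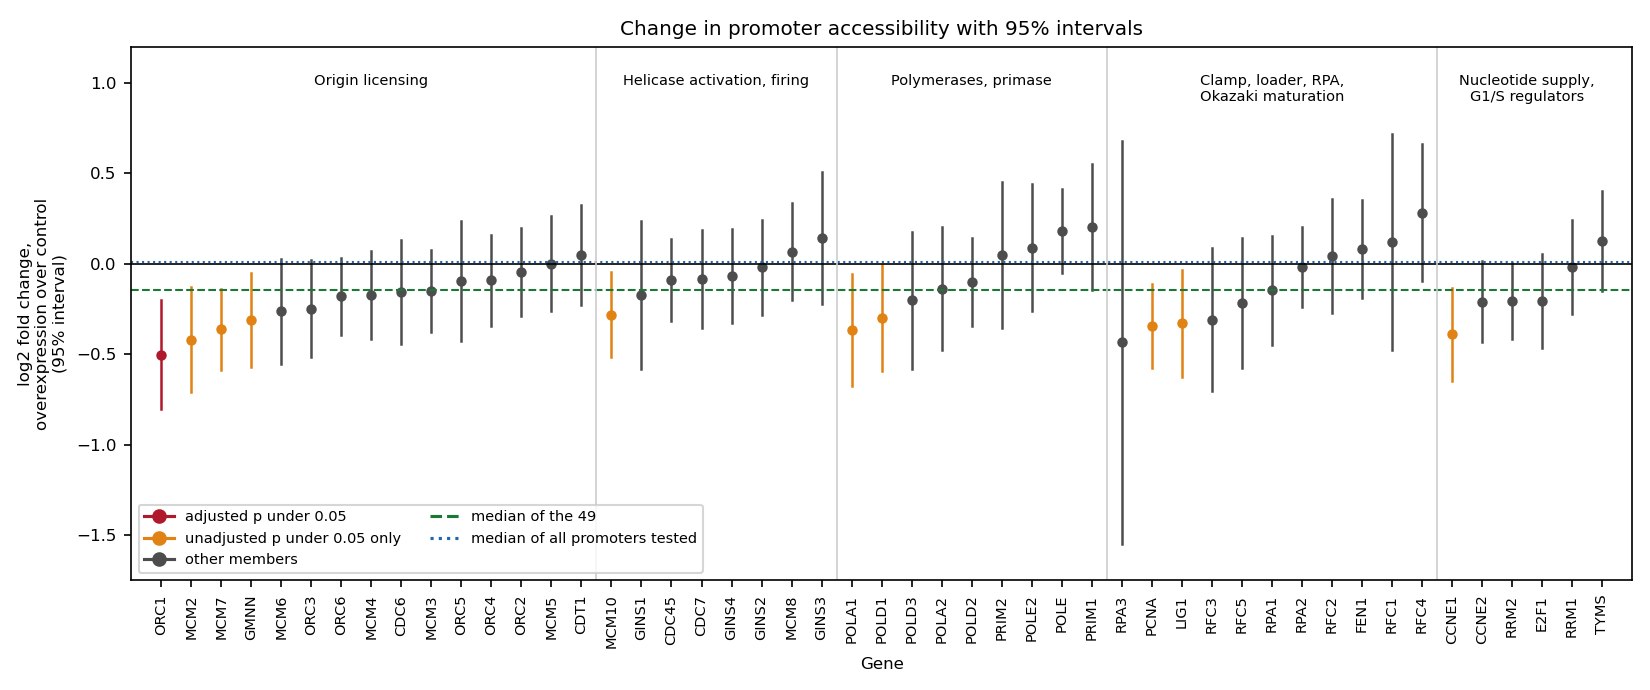
Points give the log2 fold change of overexpression over control (y axis, edgeR, n = 2 per group) for 49 promoters (x axis) grouped by role, and vertical lines give 95% intervals. ORC1 (red) passed the adjusted threshold, 9 further promoters (orange) had intervals below 0 without passing it, and the median of the 49 (dashed, −0.15) lies below that of all promoters (dotted, 0.0099).

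The single libraries gave the same picture. The median log2 ratio over the 49 was 0.034 between the control replicates (2 over 1) and −0.0048 between the overexpression replicates (2 over 1). For the 4 ratios of an overexpression to a control library it ran from −0.16 to −0.10, with 32 to 37 of the 49 lower in overexpression. Over all 15013 promoters whose mean count reached 50, the medians of those ratios were also below 0, from −0.10 to −0.05. The 49 ratios had an SD of 0.136 within control, of 0.226 within overexpression and of 0.208 to 0.257 across groups. Each cross-group median thus lay further from 0 than both medians within groups, while the ratios of single promoters varied about as much between overexpression replicates as across groups.

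**Figure D3:**
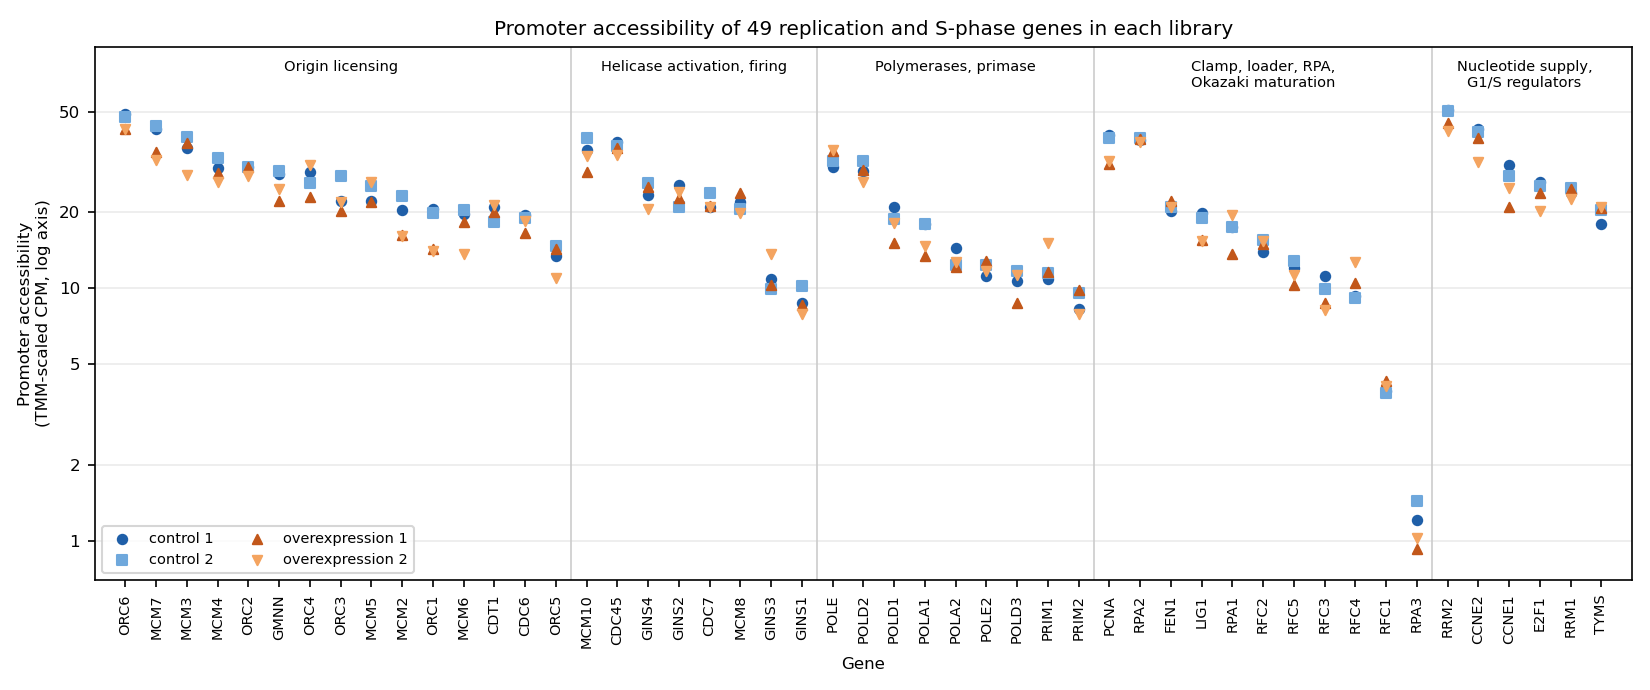
Each column is 1 of 49 promoters (x axis), ordered within its role by control level, and the 4 symbols are its TMM-scaled CPM (y axis, log scale) in the 2 control libraries (blue) and 2 overexpression libraries (orange). Levels span from RPA3 at the bottom to RRM2 at the top, and orange symbols lie below both blue ones at 24 promoters and above them at 6. Over all promoters tested, the shares below and above were 24.9% and 24.8%.

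Fold changes in these libraries depended on how open a promoter was, and the replication promoters are open ones. With all tested promoters ranked by mean abundance and split into 4 equal bins, 1 of the 49 lay in the lowest bin, 10 in the second, 16 in the third and 22 in the highest. In the highest bin the medians were −0.16 for the 22 replication promoters and −0.13 for all promoters there on the log2 scale, and 20 of the 22 were below 0, against 79.2% of all. In the third bin the medians were −0.14 for the 16 and −0.05 for all, with 11 of 16 below 0 against 60.6%. In the second bin the medians were 0.07 and 0.13, with 4 of 10 below 0 against 32.9%. The unadjusted calls on the lower side numbered 5 of 16 in the third bin, where 8.41% of all promoters were called so, and 5 of 22 in the highest, where 23.2% were. In the highest bin, therefore, the share of such calls was near that of other promoters of like abundance, while in the third bin it was higher. In both bins a larger share of the replication promoters than of all promoters was below 0. These differences were not tested.

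**Figure D4:**
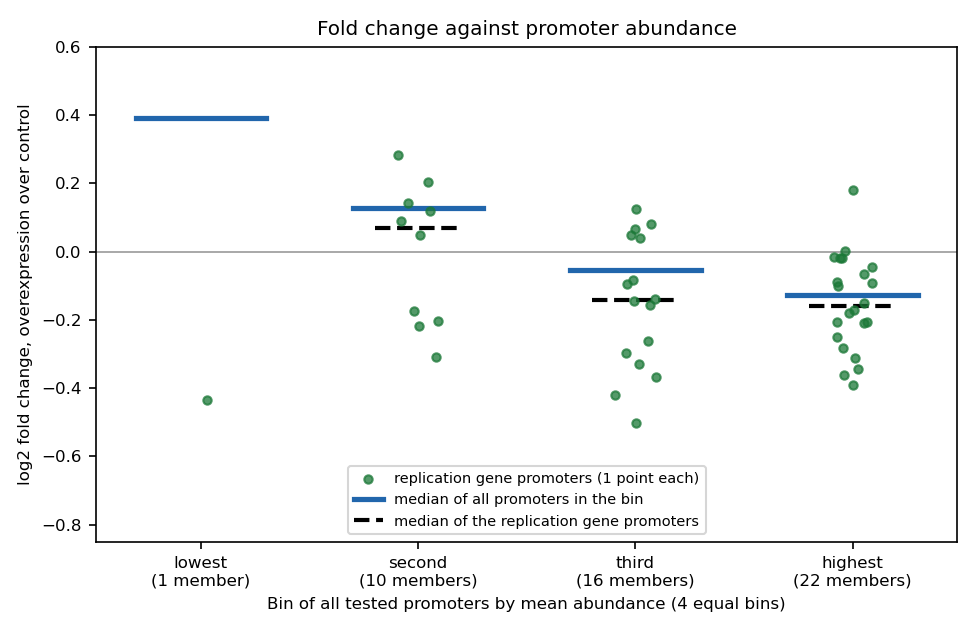
Green points are the log2 fold changes (y axis) of the 49 promoters in 4 equal bins of all 23407 tested promoters by mean abundance (x axis), with sideways scatter for legibility. Blue bars are medians of all promoters in a bin, falling from 0.39 to −0.13, and black dashes are medians of the replication promoters, which lie below the blue bars in the 3 upper bins.

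A loess scaling that removes the trend with abundance brought the median of the 49 from −0.15 to −0.06, against −0.01 for all promoters, with 30 of 49 below 0. No replication promoter passed the adjusted threshold under that scaling, which called only 68 of all 23407 promoters. At an unadjusted p under 0.05 it called 6 of the 49, against 10.7% of all promoters, with 5 lower and 1 higher. The 5 were ORC1, MCM2, MCM7, POLA1 and CCNE1. The higher one was POLE, the catalytic subunit of polymerase epsilon, which copies the leading strand.

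Origin licensing, the largest role, had the most promoters on the lower side. Of its 15 promoters, 6 lay in the third abundance bin and 9 in the highest, where promoters in general were also lower. Its share below 0 was 86.7%, against 83.3% for nucleotide supply and G1/S regulators, whose median was lower. After loess scaling the licensing median was −0.08. Of the 15, 13 were below 0 and 10 had every overexpression library below every control library, with a median log2 fold change of −0.17. Over all promoters tested, 48.6% were below 0 and 24.9% had the groups apart in that direction. ORC1 counted 288 and 206 in control, against 77 and 41 in overexpression. The TMM-scaled CPM was 20.5 and 19.8 in control and 14.4 and 14.05 in overexpression, so that the groups were apart. This made a log2 fold change of −0.50 (SE 0.154, edgeR adjusted p 0.0473). The replicates differed by less than the groups, but with n = 2 per group their closeness is a poor measure of precision. The call was lost under loess, upper-quartile and nuclear-total scaling and without any 1 library, where the adjusted p was 0.178 under loess scaling and from 0.117 to 0.276 with a library left out.

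The other subunits of the origin recognition complex, ORC2 to ORC6, had log2 fold changes from −0.25 to −0.05, and none had an unadjusted p under 0.05. CDC6, the ATPase that works with ORC to load the helicase, had 19.4 and 19.0 TMM-scaled CPM in control and 16.6 and 18.5 in overexpression (log2 fold change −0.16, SE 0.148, and −0.067 without overexpression replicate 1). CDT1, its partner in loading, had 20.9 and 18.3 in control and 19.9 and 21.2 in overexpression, with overlapping groups (0.05, SE 0.141). The sign of the CDT1 value turned to −0.04 without control replicate 2. GMNN encodes geminin, which holds CDT1 inactive after S phase begins. Its promoter had 28.3 and 29.0 in control and 22.2 and 24.7 in overexpression (−0.31, SE 0.132, edgeR unadjusted p 0.0182, adjusted p 0.182).

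The subunits of the MCM helicase differed in how far they lay from 0, although their gene products act as 1 ring. MCM7 had 42.7 and 43.8 TMM-scaled CPM in control and 34.5 and 32.2 in overexpression (log2 fold change −0.36, SE 0.115, edgeR unadjusted p 0.00166, adjusted p 0.0584). MCM2 had 20.4 and 23.3 in control and 16.2 and 16.1 in overexpression (−0.42, SE 0.148, edgeR unadjusted p 0.00446, adjusted p 0.0945). At both promoters the groups were apart, and neither passed the adjusted threshold. MCM6 had 19.6 and 20.4 in control against 18.3 and 13.7, and the low overexpression replicate 2 set much of its value of −0.26 (SE 0.148), which was −0.13 without that library and −0.55 without overexpression replicate 1. MCM4 had 29.9 and 32.8 against 28.5 and 26.4 (−0.17, SE 0.125). MCM3 had 35.8 and 39.8 against 37.5 and 28.1 (−0.15, SE 0.117), with overlapping groups and a value of −0.43 without overexpression replicate 1 and −0.014 without replicate 2. For MCM5, with 22.2 and 25.4 against 22.0 and 26.4, the groups also overlapped and the log2 fold change was 0.0014 (SE 0.134, 95% interval from −0.26 to 0.26). Differences between the subunits were not tested.

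Among the 8 promoters of helicase activation and origin firing, 6 were below 0 with a median of −0.07, and 3 had every overexpression library below every control library. The shares over all promoters tested were 48.6% below 0 and 24.9% with the groups apart in that direction. MCM10, a scaffold that activates the loaded helicase, had 35.3 and 39.3 TMM-scaled CPM in control and 28.9 and 33.2 in overexpression (log2 fold change −0.28, SE 0.120, edgeR unadjusted p 0.0187, adjusted p 0.184), and was at −0.17 without overexpression replicate 1. CDC45, which joins MCM2 to MCM7 and GINS in the active helicase, had 37.9 and 36.5 in control and 36.0 and 33.6 in overexpression (−0.09, SE 0.116). Its groups were apart by a small gap, and the sign turned to 0.04 under loess scaling. The 4 GINS promoters had values from −0.17 (GINS1) to 0.14 (GINS3). CDC7, the kinase that fires origins, was at −0.08 and MCM8, a helicase of homologous recombination, at 0.07. Upper-quartile and loess scaling turned the median of this role to 0.0067 and 0.03.

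The 9 promoters of polymerases and primase were the most evenly divided, with 5 below 0 and a median of −0.10. POLA1, the catalytic subunit of polymerase alpha that extends primers, had 17.9 TMM-scaled CPM in both control libraries and 13.4 and 14.7 in overexpression (log2 fold change −0.37, SE 0.158, edgeR unadjusted p 0.0207, adjusted p 0.194). POLD1, the catalytic subunit of polymerase delta, had 20.9 and 18.7 in control and 15.1 and 18.2 in overexpression (−0.30, SE 0.150, edgeR unadjusted p 0.0466, adjusted p 0.283). The gap between the POLD1 groups was small beside the spread within them, and the value was −0.14 without overexpression replicate 1. POLE lay on the other side, with 30.3 and 31.9 in control and 35.04 and 35.3 in overexpression. Its log2 fold change was 0.18 (SE 0.118, edgeR adjusted p 0.442), and under loess scaling 0.30 (edgeR unadjusted p 0.00984, adjusted p 0.286). PRIM1, the catalytic subunit of primase, was also higher in both overexpression libraries, at 11.6 and 15.1 against 10.9 and 11.4 (0.20, SE 0.179). The accessory subunits POLA2, POLD2, POLD3 and POLE2 and the primase subunit PRIM2 had values from −0.20 to 0.09.

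In the group of the sliding clamp, its loader, the single-strand binding protein RPA and the enzymes that join Okazaki fragments, 7 of 11 promoters were below 0, with a median of −0.15. PCNA, the clamp itself, counted 568 and 407 in control, against 167 and 93 in overexpression. On the scale of TMM-scaled CPM it had 40.5 and 39.1 in control and 31.1 and 31.9 in overexpression (log2 fold change −0.34, SE 0.118, edgeR unadjusted p 0.00365, adjusted p 0.0860). The replicates of PCNA were closer to each other than the groups were. LIG1, the ligase that seals Okazaki fragments, had 19.8 and 18.9 against 15.5 and 15.4 (−0.33, SE 0.152, edgeR unadjusted p 0.0301, adjusted p 0.230). FEN1, the nuclease that trims the flap before ligation, had 20.2 and 20.9 against 22.2 and 20.9 (0.08, SE 0.138).

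The loader subunits RFC1 to RFC5 ran from −0.31 (RFC3) to 0.28 (RFC4), the highest value of all 49. RFC4 had 9.33 and 9.13 TMM-scaled CPM in control and 10.4 and 12.7 in overexpression (SE 0.194, edgeR unadjusted p 0.143), so that the groups were apart without passing the test. RPA1 and RPA2 were at −0.15 and −0.02. RPA3 had the lowest level of the 49, with counts of 17 and 15 in control against 5 and 3, and its log2 fold change of −0.43 (SE 0.569) could not be told from 0 at that depth. RFC1 was next lowest, with counts of 55 and 40 in control against 23 and 12. Without overexpression replicate 1 the median of this role was −0.04 and without overexpression replicate 2 it was −0.28.

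Among the 6 promoters of nucleotide supply and of G1/S regulators, 5 were below 0 and the median was −0.21. CCNE1, which encodes the cyclin E1 that drives entry into S phase with CDK2, had 30.7 and 27.8 TMM-scaled CPM in control and 20.9 and 25.0 in overexpression (log2 fold change −0.39, SE 0.132, edgeR unadjusted p 0.00310, adjusted p 0.0803). Its groups were apart, with a spread within overexpression larger than the gap to control, and the value was −0.24 without overexpression replicate 1. CCNE2 was at −0.21 (SE 0.114). E2F1, the transcription factor of the G1/S programme, had 26.4 and 25.5 against 23.9 and 20.2 (−0.21, SE 0.134, and −0.37 without overexpression replicate 1). RRM2, the regulatory subunit of ribonucleotide reductase, had the highest level of all 49, with 50.6 and 50.5 in control and 45.1 and 41.8 in overexpression (−0.21, SE 0.108, edgeR unadjusted p 0.0560). Its larger partner RRM1 was at −0.02. TYMS, which makes thymidylate, was the 1 gene here on the higher side, with 17.9 and 20.4 against 20.7 and 20.9 (0.13, SE 0.141), and the gap between its groups was small.

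Some of these windows are shared with another gene. Of 42 replication genes with an annotated start, 12 had a gene on the opposite strand that starts within 2 kb, which made 13 pairs, since PCNA has both CDS2 and PCNA-AS1. In all 13 pairs the neighbour had the same sign as the replication gene, and 0 of the neighbours passed the adjusted threshold. PRPF38A, a splicing factor gene whose start lies 179 bp from that of ORC1 in GRCh38.p14, counted 288 and 203 in control, against 78 and 41 in overexpression. These are within 3 counts of those of ORC1 in every library, and the PRPF38A log2 fold change was −0.48 (SE 0.154, edgeR adjusted p 0.0600). AP4M1 beside MCM7 was at −0.37, TPRA1 beside MCM2 at −0.40 and CDS2 beside PCNA at −0.36. PXMP2 beside POLE was at 0.16. Windows around starts this close overlap and count the same fragments for both genes, so that a change at ORC1 and a change at PRPF38A cannot be told apart.

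**Figure D5:**
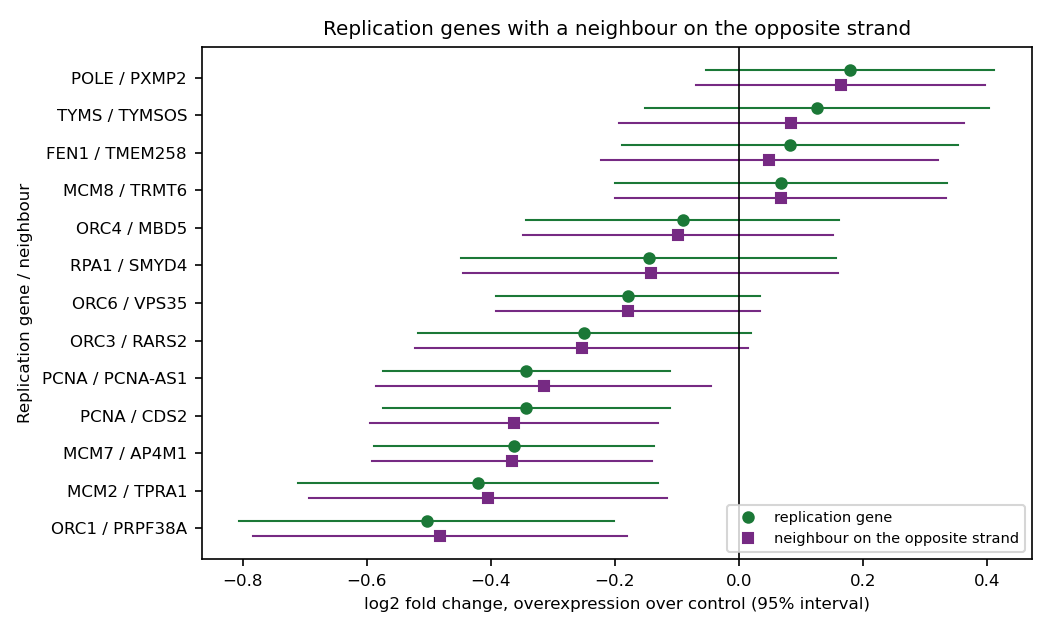
For 13 pairs (y axis), the log2 fold change of the replication gene (green circle) and of its opposite-strand neighbour (purple square) is given with 95% intervals (x axis). The pairs run together from ORC1 and PRPF38A (−0.50 and −0.48) to POLE and PXMP2 (0.18 and 0.16), with the same sign in all 13.

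Lists of other genes of replication and the cell cycle gave similar counts. Of 39 other replication genes tested, 0 passed the adjusted threshold, 29 were below 0 and the median log2 fold change was −0.11. At an unadjusted p under 0.05, 5 were lower and 1 was higher. Over all promoters tested, 8.57% were lower and 8.66% higher at that p (edgeR), and 48.6% were below 0. Past the adjusted threshold, 1.30% of all promoters fell and 1.16% rose. TK1, which salvages thymidine, counted 529 and 404 in control, against 153 and 99 in overexpression (−0.32, SE 0.119, edgeR adjusted p 0.116). MCM9 was at −0.33 (SE 0.134) and the histone chaperone ASF1B at −0.24 (SE 0.112). UHRF1, which keeps DNA methylation through replication, was the higher one, with counts of only 24 and 20 in control against 17 and 15 (1.10, SE 0.368, edgeR adjusted p 0.0759).

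Of 24 G1/S regulators, 0 passed the adjusted threshold, 15 were below 0, against 48.6% of all promoters, and the median was −0.10. E2F3 counted 831 and 700 in control, against 273 and 151 in overexpression (log2 fold change −0.30, SE 0.103, edgeR adjusted p 0.0864), and TFDP1, the dimer partner of E2F proteins, was at −0.39 (SE 0.148) and CDK4 at −0.28 (SE 0.138). Of 30 genes of G2 and mitosis, 0 passed, 19 were below 0 and the median was −0.06. In that list MAD2L1, CDC25B, NDC80 and TTK were lower at an unadjusted p under 0.05, with log2 fold changes of −0.36, −0.47, −0.39 and −0.27. At that p (edgeR), 8.57% of all promoters were lower and 8.66% higher. AURKB, a kinase of chromosome segregation, was higher, with counts of 213 and 153 in control against 89 and 65 (0.32, SE 0.151, edgeR adjusted p 0.248). The medians of these 3 lists thus lay below 0 like that of the 49, but loess scaling brought them to −0.02, −0.07 and 0.01 in the order given here, with the G2 and mitosis list on the other side. Differences between the lists were not tested.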

How the data were processed

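ATAC-seq libraries of HEK293T cells (2 control, 2 overexpression) were grouped by their labels. The authors trimmed the reads, aligned them with bowtie2 to the CHM13 assembly, kept properly paired, well-mapped reads, removed duplicates with Picard and counted fragments by midpoint, as the study's methods describe. The deposited table holds raw counts per promoter, 1 row per Entrez identifier. That each row covers the whole 2 kb window is an assumption, and windows of close genes share fragments. No shift for the Tn5 offset was described. Some list members are not reported here. The peak lists, on CHM13, were not used here, since the gene and promoter tables used for names, neighbours and sequences are on GRCh38.p14. Symbols were found for 28763 of 28775 promoters.

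Low promoters were removed by filterByExpr (edgeR 4.0.16 in R 4.3.3), and counts were scaled by TMM over full library totals and tested with the quasi-likelihood F-test (legacy form, two-sided, no covariate). P-values were adjusted by Benjamini-Hochberg over all 23407 promoters, with a threshold of 0.05. Levels are TMM-scaled CPM over windows of equal length, and 95% intervals are normal ones from the standard error. The test was checked on counts simulated from the same promoter proportions in both groups, apart from a set of changed promoters. That check did not cover the difference in mitochondrial share or the trend with abundance. The members, lists, motifs and named genes were chosen with earlier results of these data known. Library values are given in full for members with an unadjusted p under 0.05, for set landmarks of each role and for the highest and lowest level, and from other lists for up to 5 genes of smallest p. POLE, PRIM1, RFC1, RFC4 and FEN1 were given in full, and UMAD1, PRPF38A and other neighbours named, after their values were seen. Alternatives covered scaling, filter, test (DESeq2 1.42.0, limma-voom 3.58.1), threshold, the replicate block and leaving out each library.

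Replicates differed by more than sampling noise (chi-square over degrees of freedom 1.25 in control and 1.12 in overexpression), and none were merged.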

Additional observations from a re-analysis of the deposited data

How the results depend on the processing

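Among the alternative values of 20 named genes, 347 kept direction and side of the threshold, 17 newly passed it, 11 no longer did and 11 turned sign. Of those that newly passed, 1 was MCM7 with the edgeR 4 form. The others came from library totals, under which all 49 replication promoters and 16319 of all 23407 promoters passed. Every value that no longer passed was of ORC1. Where no reason is given, the cause was not tested. Loess scaling without mitochondrial promoters and totals recomputed after the filter were chosen after seeing the data.

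The number of replication promoters past the threshold (1, ORC1) was 0 with totals of nuclear promoters, upper-quartile scaling, loess scaling with or without mitochondrial promoters, a minimum of 10 counts per library, a mean count of 50 or more, limma-voom, an adjusted p under 0.01 and each library left out (0 to 0). It was also 0 in DESeq2, where 40 of the 49 had no adjusted p after independent filtering and 5 had an unadjusted p under 0.05. It was 2 (ORC1 and MCM7) with the edgeR 4 form and 5 at an adjusted p under 0.1. With library totals, which are mostly mitochondrial and move the median of all promoters to −0.78, it was 49. Other replication genes then numbered 37, G1/S regulators 24 and G2 and mitosis genes 30, and an adjusted p under 0.1 gave 1 other replication gene and 1 G1/S regulator. The ORC1 adjusted p ran from 0.0395 to 0.276 over the settings that gave one, apart from library totals (1.15e-13).

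The median of the 49 (−0.15) was −0.93 with library totals, −0.090 with totals of nuclear promoters, −0.065 after upper-quartile scaling, −0.061 after loess scaling, −0.053 after loess scaling without mitochondrial promoters, −0.17 with no filter, −0.12 with a minimum of 10 counts, −0.075 with a mean count of 50 or more and −0.13 in DESeq2, and ran from −0.16 to −0.11 with each library left out. Library totals gave −0.97 for licensing, −0.87 for firing, −0.90 for polymerases, −0.93 for the clamp and fork and −1.003 for nucleotide supply and regulators. In that order of roles, upper-quartile scaling gave −0.090, 0.0067, −0.019, −0.065 and −0.12, loess scaling −0.082, 0.030, −0.035, −0.20 and −0.066, loess scaling without mitochondrial promoters −0.064, 0.038, −0.0087, −0.12 and −0.060, and a mean count of 50 or more −0.099, −0.0025, −0.029, −0.075 and −0.13. Totals of nuclear promoters gave −0.12, −0.019, −0.045 and −0.090 for the first 4. No filter gave −0.20 for licensing and −0.17 for the clamp and fork, and a minimum of 10 counts −0.14 and −0.055. The clamp and fork median was −0.091 without mitochondrial promoters, −0.12 in DESeq2 and −0.16 in limma-voom. With each library left out the medians ran from −0.23 to −0.16, −0.14 to −0.040, −0.11 to −0.048, −0.28 to −0.043 and −0.26 to −0.12 in the order of roles above.

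Signs turned for CDT1 with library totals (−0.74) and over the libraries left out (−0.039 to 0.16), for MCM5 with library totals (−0.79), without mitochondrial promoters (−0.0083), with no filter (−0.024), in limma-voom (−8.37e-05) and over the libraries left out (−0.11 to 0.15), for CDC45 with loess scaling (0.041) and loess scaling without mitochondrial promoters (0.048), and for TYMS with library totals (−0.67).

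Replicate numbers were shared by the groups, but deviations from the group mean correlated at only 0.051 between libraries of the same number (14976 promoters), so the numbers were not used as a pairing. With the replicate block the median of the 49 was −0.15, ORC1 had an adjusted p of 0.0487 and no call of a replication promoter changed, while calls over all promoters went from 577 to 488. Depth limits low promoters most, as the RPA3 standard error of 0.569 shows beside a median of 0.138.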

Other observations

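The 22 replication promoters with an E2F match had a median log2 fold change of −0.16, of which 16 were below 0, and the 20 without one had a median of −0.09, of which 14 were below 0. Their median control levels were 20.6 and 20.4 TMM-scaled CPM. With a CCAAT box, 21 of 25 were below 0 with a median of −0.17, and without one 9 of 17 with a median of −0.08, at median control levels of 25.0 and 19.2 TMM-scaled CPM. A GC box was held by 32 of the 42 promoters searched, and all 10 promoters with an unadjusted edgeR p under 0.05 were among them. Over all promoters tested, 8.57% were lower at that p. The median control level was 22.1 with a GC box, against 16.6 for the 10 without one. The differences between promoters with and without a motif were not tested.

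E2F matches were found in 8 of 13 licensing genes, 5 of 7 firing genes, 4 of 8 polymerase and primase genes, 3 of 9 clamp and fork genes and 2 of 5 supply and regulator genes with a sequence. RPA3, the least accessible of the 49, shares its locus with UMAD1, whose own promoter was among the open ones, with counts of 595 and 455 in control against 236 and 115 and a log2 fold change of −0.03 (SE 0.110).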
